A study of Mus musculus with 16 samples.

Results

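Supporting cells, the non-sensory cells that surround and hold the hair cells of the organ of Corti, were sorted from newborn mouse cochleas in which Notch signalling had been blocked, and their RNA was compared with that of cells kept in the solvent. The comparison rests on 4 of the 16 samples of the series, the 2 titled P0 Cochlea DAPT GFP+ and the 2 titled P0 Cochlea DMSO GFP+. All 4 came from Lfng-EGFP mice (B6;FVB-Tg(Lfng-EGFP)HM340Gsat/Mmucd), whose cochleas were explanted at postnatal day 0 (P0) and kept in culture for 24 hours. One group received 10 µM DAPT, a gamma-secretase inhibitor, and the other received 0.04% DMSO, the solvent of the drug. After culture the cells with the brightest GFP were collected. The transgene is a bacterial artificial chromosome that carries EGFP under Lfng regulatory sequence and marks border, inner phalangeal, outer pillar and Deiters' cells, but not inner pillar cells. Lfng is itself a Notch pathway gene, and its own transcript was at 669 and 651 CPM with DMSO, where CPM is the count of a gene scaled to a common library total, and at 185 and 178 CPM with DAPT. Cells of 2 further groups, GFP+ cells of postnatal day 5 (P5) cochleas with DAPT or DMSO, are set beside the P0 cells where their values bear on a result.

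Notch works between touching cells. A ligand on a hair cell opens its receptor on the neighbouring supporting cell to cleavage by gamma-secretase, and the freed receptor fragment joins the DNA-binding protein RBPJ and turns on genes of the Hes and Hey families. These encode repressors that hold hair cell genes silent, and when gamma-secretase is blocked soon after birth some supporting cells take up hair cell features. The Notch targets and the hair cell genes themselves are given here only briefly, and the account turns to the other pathways and gene classes of the supporting cells.

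The promoters of the Notch effectors Hes5 and Nrarp were held by the RefSeq promoter table (build GRCm38.p6, plus strand for both). They run from 250 bases before to 50 bases after the start of transcription. The Hes5 promoter, chr4:154960673-154960972, and the Nrarp promoter, chr2:25180508-25180807, are printed 5′ to 3′. Capitals mark GTGGGAA, which RBPJ binds, and CACGTG, which Hes and Hey proteins can bind, on either strand.
Hes5: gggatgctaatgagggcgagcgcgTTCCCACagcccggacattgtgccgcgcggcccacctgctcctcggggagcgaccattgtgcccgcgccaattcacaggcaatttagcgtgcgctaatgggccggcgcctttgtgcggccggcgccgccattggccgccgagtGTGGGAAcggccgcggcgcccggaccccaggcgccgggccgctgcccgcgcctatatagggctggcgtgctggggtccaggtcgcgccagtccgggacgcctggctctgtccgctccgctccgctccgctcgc
Nrarp: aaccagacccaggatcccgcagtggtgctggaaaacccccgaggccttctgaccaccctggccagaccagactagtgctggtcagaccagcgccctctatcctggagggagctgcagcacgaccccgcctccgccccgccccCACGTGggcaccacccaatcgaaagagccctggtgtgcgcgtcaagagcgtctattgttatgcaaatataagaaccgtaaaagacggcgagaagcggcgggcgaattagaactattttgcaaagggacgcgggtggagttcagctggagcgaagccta
The Hes5 promoter held 2 copies of GTGGGAA, one on each strand, and the Nrarp promoter held 1 CACGTG and no GTGGGAA in this window. Hes5, a repressor of hair cell genes, fell from 112 and 84.8 CPM with DMSO to 0.32 and 0.362 CPM with DAPT (log2 fold change -8.18, SE 0.28, adjusted p = 5.3e-07). Nrarp, a feedback inhibitor of Notch, fell from 72.6 and 69.3 to 4.38 and 2.64 CPM (log2 fold change -4.37, SE 0.25, adjusted p = 4.4e-06). In both genes the treated libraries lay far below the controls. Over all tested genes with a promoter in the table, 7.49% held GTGGGAA in at least 1 promoter (6.32% of all promoters), against 61 of 555 genes called lower and 35 of 557 called higher. CACGTG stood in 10.5% of all such genes (8.89% of promoters), 58 of 555 lower and 55 of 557 higher genes. CACGCG, another sequence of Hes and Hey proteins, stood in 16.8% of all (14.3% of promoters), 63 of 555 lower and 122 of 557 higher genes. The median GC content of the promoters was 58.7% over all tested genes, 56.7% for genes called lower and 60.3% for genes called higher. These shares describe letters in a window of 300 bases, and their part in the response was not tested.

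To be called, a gene had to differ more than 2-fold in edgeR's quasi-likelihood test with an adjusted p below 0.01. Of 20711 genes tested, 870 were called higher with DAPT (4.2%) and 863 lower (4.17%). Each list count given in the following paragraphs is to be read against these shares. The lists and their members were chosen with earlier results of these data known, so a larger share is a description and no test. Over the 2297 members of any list that were tested, 6.36% were called higher and 7.14% lower. The labels do not say that replicates came from separate litters or cultures, so p-values measure the spread between these samples. The P0 GFP+ libraries held between 18835400 and 23637236 counts in genes. The DMSO pair lay in a run of library numbers of its own, whereas the DAPT pair shared a run with all P5 GFP+ libraries, so that run and treatment cannot be told apart, and neither run holds both groups. The DMSO libraries stood apart in how many genes they detected: 30639 and 31345 genes had a count, against 25651 and 26659 with DAPT, and 2645 genes had a count in both DMSO libraries and in neither DAPT library, against 153 for the reverse. They also had more reads with several alignments (8.56 and 7.63%, against 4.45 and 4.43% with DAPT and 3.95 to 4.26% in the P5 GFP+ libraries) and a larger share of counts in mitochondrial genes (32.2 and 27.2% against 23.03 and 25.1%). The part of these differences in the results was not tested. Weakly expressed genes were shifted toward the DMSO libraries. The median log2 fold change was -1.28 over the 3763 genes with a mean under 1 CPM, -0.19 over the 7639 genes from 1 to 10 CPM, 0.15 over the 7509 genes from 10 to 100 CPM and 0.14 over the 1800 genes above that, and -0.045 over all genes. Each list median in the following paragraphs is therefore given also for members that reach a mean of 10 CPM in the higher group. At that level the median over all genes was 0.15, and of 9900 genes 787 were called higher and 546 lower. These shares are larger than those over all genes tested, so lists of well expressed genes are to be read against them. Of the genes called higher, the P5 DMSO level, measured in the run of the DAPT libraries, lay nearer to P0 DMSO than to P0 DAPT in 666 of 870, and of the genes called lower in 411 of 863; age differs between these groups as well as the run. With each of the 4 libraries left out in turn, 602 of the higher and 379 of the lower genes kept their call. Where a named gene lost its call without any of several libraries, the library whose omission gave the weakest result is named.

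**Figure D1:**
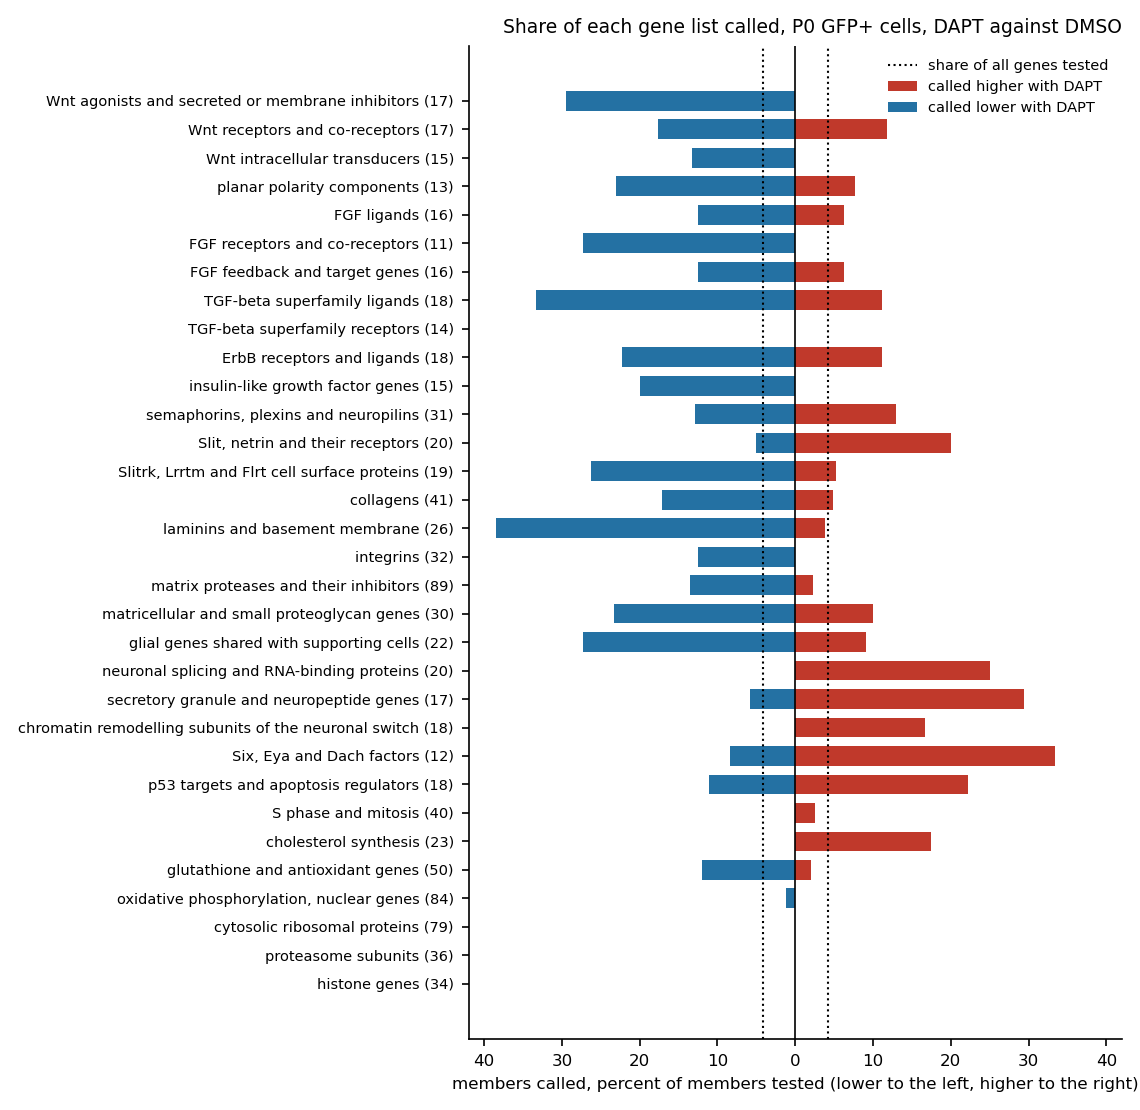
Share of the members of 32 gene lists called lower (blue, to the left) and higher (red, to the right) with DAPT in P0 GFP+ cells, in percent of the members tested, which are given in brackets. Dotted lines mark the shares over all 20711 genes tested, 4.17% lower and 4.2% higher. Of the lists drawn, laminins and basement membrane genes have the longest bar to the left. Eya, Dach and sine oculis homeobox factors have the longest to the right. The lists drawn were picked from 75. Some lists left out had larger shares, among them Notch effectors (85.71% lower) and hair cell markers (63.33% higher).

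Among the 18 themes of the lists, the matrix around the cells held the most genes called lower, but not the largest share. The share called lower was 17.45% for matrix genes, against 25.0% for the Notch theme, 18.92% for Wnt and 18.6% for glia. Of 212 matrix genes tested, 37 were called lower and 8 higher, with a median log2 fold change of -0.99 (-0.57 over the 89 members that reached 10 CPM). The lower count was 20 without DMSO replicate 1. Basement membrane genes led: 10 of 26 tested fell and 1 rose, with a median of -1.03, and 6 fell without DMSO replicate 1. Over the 20 basement membrane genes at 10 CPM or more the median was -0.94. Lama1 (ENSMUSG00000032796, chromosome 17, 68046605 to 68171985 of NCBIM37) is a laminin alpha chain. It went from 39.5 and 31.1 to 4.96 and 3.88 CPM (log2 fold change -3.03, SE 0.25, adjusted p = 3.9e-05). Frem1, a protein of the epithelial basement membrane, went from 23.9 and 33.4 to 4.004 and 3.77 CPM (log2 fold change -2.91, SE 0.26, adjusted p = 6.9e-05). Col4a1 and Col4a2, the chains of the common type IV collagen of basement membranes, are neighbouring genes that overlap in the annotation. Col4a1 fell from 148 and 158 to 35.1 and 38.98 CPM and Col4a2 from 73.5 and 100.1 to 20.2 and 26.5 CPM. The groups did not overlap for any of these 4 genes, which follows largely from their calls in these same libraries and adds no support. Agrn, the heparan sulfate proteoglycan agrin, fell from 413 and 384 to 169 and 181 CPM (log2 fold change -1.22, SE 0.12). The member that rose was Ntn4, a laminin-related netrin, from 39.2 and 32.2 to 75.3 and 97.8 CPM (log2 fold change 1.24, SE 0.18). In 5 of the 10 lower genes, and in Ntn4, the call was kept with each library left out.

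Among collagens, 7 of 41 fell and 2 rose (median -0.68, or -0.46 at 10 CPM or more). Besides the type IV chains, Col22a1, a collagen of tissue junctions, went from 23.4 and 26.2 to 2.83 and 2.22 CPM (log2 fold change -3.33, SE 0.27, adjusted p = 4.0e-05). Col28a1 and Col8a1 also passed the limits, from levels under 6 CPM, and lost the call, Col28a1 without DMSO replicate 2 (adjusted p = 0.0308) and Col8a1 with each library left out in turn (up to 0.0804 without DMSO replicate 1). Col4a5 (log2 fold change -1.21) lost it without DAPT replicate 2 (adjusted p = 0.0134). Col13a1, a transmembrane collagen, rose from 2.11 and 2.8 to 15 and 14.7 CPM (log2 fold change 2.56, SE 0.32). Col27a1 rose as well (log2 fold change 1.16), with a log2 fold change of 0.83 without DAPT replicate 2. Of 32 integrins, the receptors that bind cells to this matrix, 4 fell. Itga9 went from 70.9 and 79.2 to 27.6 and 21.6 CPM and Itgb5 from 64.2 and 50.2 to 19.2 and 23.1 CPM. Itgb8 (log2 fold change -1.17) and Itga6, a laminin receptor chain (log2 fold change -1.04), were the other members called lower, and Itga6 fell under the fold limit without DMSO replicate 2 (log2 fold change -0.93). Itgb1, the chain shared by most laminin and collagen receptors, was not called, at 217.5 and 200.3 CPM with DMSO and 122.5 and 131.5 CPM with DAPT (log2 fold change -0.75, adjusted p = 0.0032).

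Matrix proteases and their inhibitors gave 12 lower and 2 higher calls among 89 tested, with 5 lower without DMSO replicate 1 and 7 without DAPT replicate 1. The median of the list was -1.23, and -0.215 over the 21 members that reached 10 CPM. Of the 12 lower genes, 6 did not reach that level. Mmp13, a collagenase, had 81 counts in the DMSO pair and 0 in the DAPT pair, which makes it at least 24.8-fold lower against a floor of 3 counts over the group. Serpinb7, a protease inhibitor, had 94 against 1 count, a ratio of 86.3 with a 95% counting interval from 15.1 to 3443. Both calls, and those of Serpinb2, Serpinb12 and Serpinb11, were lost without at least 1 library, with adjusted p from 0.0216 to 0.0829. Prss23, a serine protease, fell from 218 and 216 to 9.34 and 12.6 CPM (log2 fold change -4.34, SE 0.18, adjusted p = 1.3e-06). Serpine2, an inhibitor of serine proteases, fell from 297 and 340 to 49.3 and 63.3 CPM, and Adamts2, which trims procollagen, from 119 and 122 to 33.1 and 25.4 CPM. In the other direction Adamts15 rose from 21.3 and 11.2 to 71.1 and 95.4 CPM and Adamts16 from 8.33 and 15.8 to 75.7 and 50.5 CPM.

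Matricellular and small proteoglycan genes divided, with 7 of 30 lower (3 without DMSO replicate 1, 4 without DAPT replicate 1) and 3 higher. Egfl6, an epidermal growth factor-like matrix protein on the X chromosome (162960939 to 163023652), fell 20.4-fold, from 257 and 320 to 15.2 and 13.8 CPM (log2 fold change -4.35, SE 0.17, adjusted p = 8.4e-07). Ccdc80, a secreted matrix protein, fell from 151 and 163 to 13.4 and 12.4 CPM (log2 fold change -3.64, SE 0.15). Thbs3, a thrombospondin, fell from 27.8 and 30.9 to 7.26 and 8.84 CPM. Tnn, Sparcl1 and Thbs1 were called lower with all libraries and not without DMSO replicate 2 (adjusted p = 0.0499), DAPT replicate 1 (0.0328) and DMSO replicate 1 (0.0206) in this order. Tenascin C, Tnc, a matrix protein of growing tissue, moved the other way, from 578 and 518 to 1600 and 1463 CPM (log2 fold change 1.45, SE 0.12). Ncan, a brain proteoglycan, rose from 12.2 and 7.69 to 38.01 and 47.5 CPM, and Thbs2 from 5.36 and 3.56 to 15.2 and 26.5 CPM. Of all 45 matrix genes called, 16 of 37 lower and 7 of 8 higher kept the call with each library left out, and the P5 DMSO level lay nearer to P0 DMSO in 22 of the 37 and 4 of the 8. Vessel wall and connective tissue cells also make such matrix. The summed level of 10 pericyte and smooth muscle markers was 132 and 150 CPM with DMSO and 19.2 and 18.9 CPM with DAPT, of which Pdgfrb alone gave 99.96 and 117.5 and then 6.03 and 6.10 CPM. That of 12 endothelial markers was 47.4 and 53.5 against 28.8 and 31.8 CPM, and that of 14 fibroblast and mesenchyme markers 310 and 263 against 203 and 368 CPM, the last with overlap. Their part in the matrix changes was not tested, and in bulk samples fewer cells of a type and less RNA per cell cannot be told apart.

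**Figure D2:**
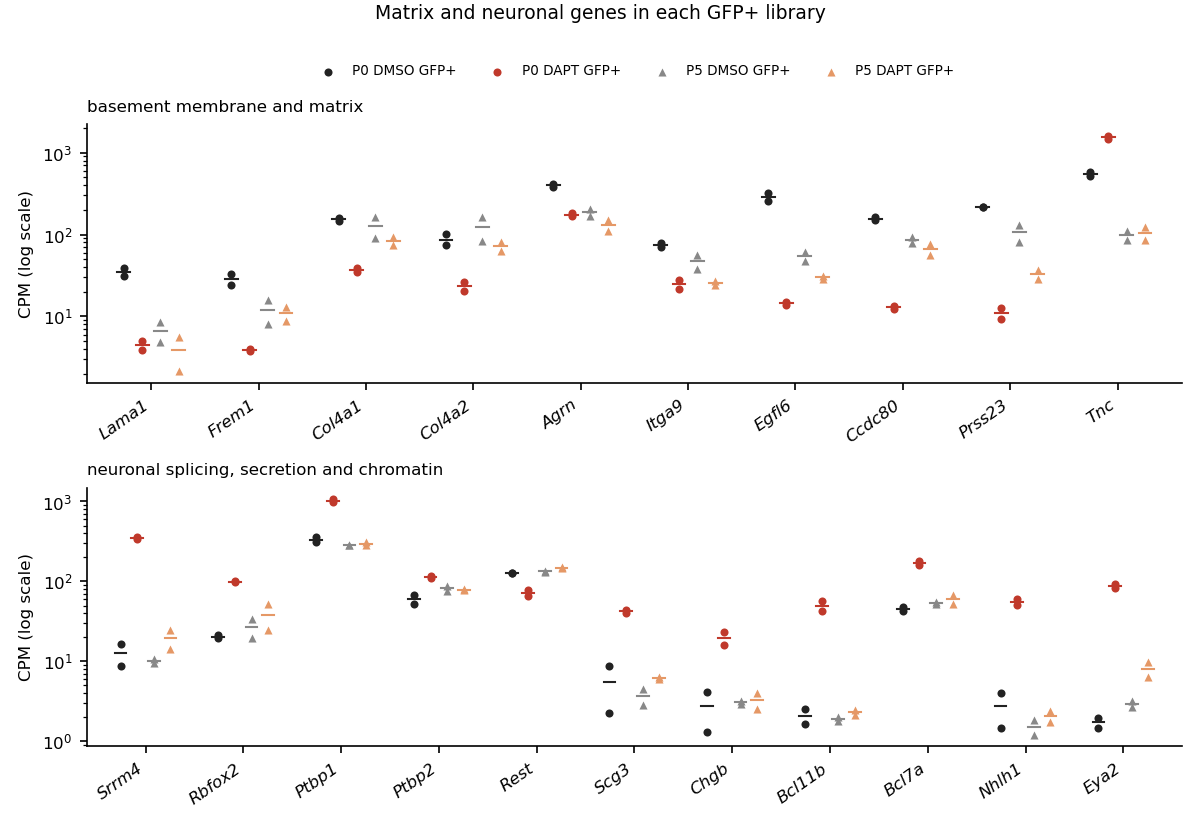
Level of basement membrane and matrix genes (top) and of genes of neuronal splicing, secretion and chromatin (bottom) in each GFP+ library, in CPM on a log scale. Each point is 1 library and each short line the mean of the 2 libraries of a group. In P0 cells the matrix genes shown other than Tnc lie lower with DAPT, and the neuronal genes shown other than Rest lie higher.

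Wnt proteins are secreted signals that act through Frizzled receptors and beta-catenin, and in the newborn cochlea Wnt responsive supporting cells can divide or form hair cells. Of 74 Wnt genes tested, 14 were called lower and 3 higher, and 13 of the 14 lower genes kept the call with each library left out. The P5 DMSO level lay nearer to P0 DMSO in 7 of the 14 lower and all 3 higher Wnt genes. Secreted and membrane regulators held 5 lower calls among 17 in edgeR's test. Their median was -1.70 (-1.19 over the 8 members at 10 CPM or more). Frzb (ENSMUSG00000027004, chromosome 2, 80252127 to 80287782), a secreted protein that binds Wnt ligands, fell 56.2-fold, from 143 and 81.4 to 1.44 and 2.64 CPM (log2 fold change -5.81, SE 0.36, adjusted p = 7.4e-06). Sfrp1, of the same family, fell from 1806 and 1320 to 416 and 570 CPM, and Sfrp2 from 14.4 and 22.5 to 4.49 and 4.55 CPM. Dkk3, a member of the Dickkopf family, fell from 202 and 189 to 20.2 and 23.1 CPM (log2 fold change -3.21, SE 0.15). Dkk2 was called at a low level, from 4.62 and 3.16 to 0.32 and 0.672 CPM, and lost the call without DMSO replicate 1 (adjusted p = 0.0765). These genes encode inhibitors or modulators of Wnt.

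Of 17 Wnt receptors and co-receptors, 3 Frizzled genes fell. Fzd9 went from 111 and 95.7 to 21.2 and 22.1 CPM (log2 fold change -2.29, SE 0.16), Fzd1 from 111 and 88.5 to 12.01 and 29.7 CPM (-2.29, SE 0.34) and Fzd4 from 240 and 219 to 64.7 and 71.1 CPM (-1.79, SE 0.14). Fzd3 rose from 177.5 and 200.4 to 399 and 379 CPM, and Lgr5, a co-receptor for R-spondins that marks supporting cells able to divide, rose from 362 and 233 to 740 and 709 CPM. The rise of Fzd3 was 0.95 (log2) without DMSO replicate 1 and that of Lgr5 0.98 without DMSO replicate 2, under the fold limit of 1. Among 12 ligands 1 fell, Wnt7a, from 106 and 114 to 29.2 and 39.03 CPM (log2 fold change -1.73, SE 0.17). Inside the cell 2 of 15 transducers fell. Daam2, which links Wnt receptors to the actin skeleton, went from 247 and 334 to 19.2 and 10.03 CPM (log2 fold change -4.35, SE 0.29), and Tcf7l1, a repressor of Wnt target genes, from 82.4 and 79.6 to 24.7 and 23.7 CPM. Ctnnb1, beta-catenin, was at 652 and 641 CPM with DMSO and at 517 and 518 CPM with DAPT (log2 fold change -0.36, adjusted p = 0.0429). Axin2 and Lef1, common readouts of Wnt activity, were not called, with Axin2 at 10.7 and 10.8 against 18.6 and 14.3 CPM (adjusted p = 0.115) and Lef1 overlapping at 3.34 and 4.99 against 3.36 and 7.39 CPM.

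The planar polarity branch, which aligns hair bundles across the epithelium, had 3 lower and 1 higher call among 13 genes. Prickle1 fell from 19.3 and 24.2 to 5.29 and 7.03 CPM, Prickle2 from 45.1 and 49.7 to 13.9 and 15.2 CPM and Vangl1 from 77.6 and 79.3 to 29.9 and 21.1 CPM. Celsr3, a cadherin of the polarity complex that also guides axons, rose 13.7-fold, from 8.01 and 6.77 to 117 and 90.3 CPM (log2 fold change 3.77, SE 0.20, adjusted p = 3.2e-06). At P5 Celsr3 was at 9.78 and 13.7 CPM with DMSO and at 8.34 and 9.02 CPM with DAPT, and the difference between the responses at the 2 ages passed the limits (-4.21 on the log2 scale, SE 0.33, adjusted p = 0.00063). Over all genes 245 of 22199 passed in that test of the difference (1.1%), and of the 1733 genes called at P0 239 passed. The P0 groups lie in different runs and the P5 groups in 1 run. Age and the run of the P0 controls therefore cannot be told apart in such a difference.

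**Figure D3:**
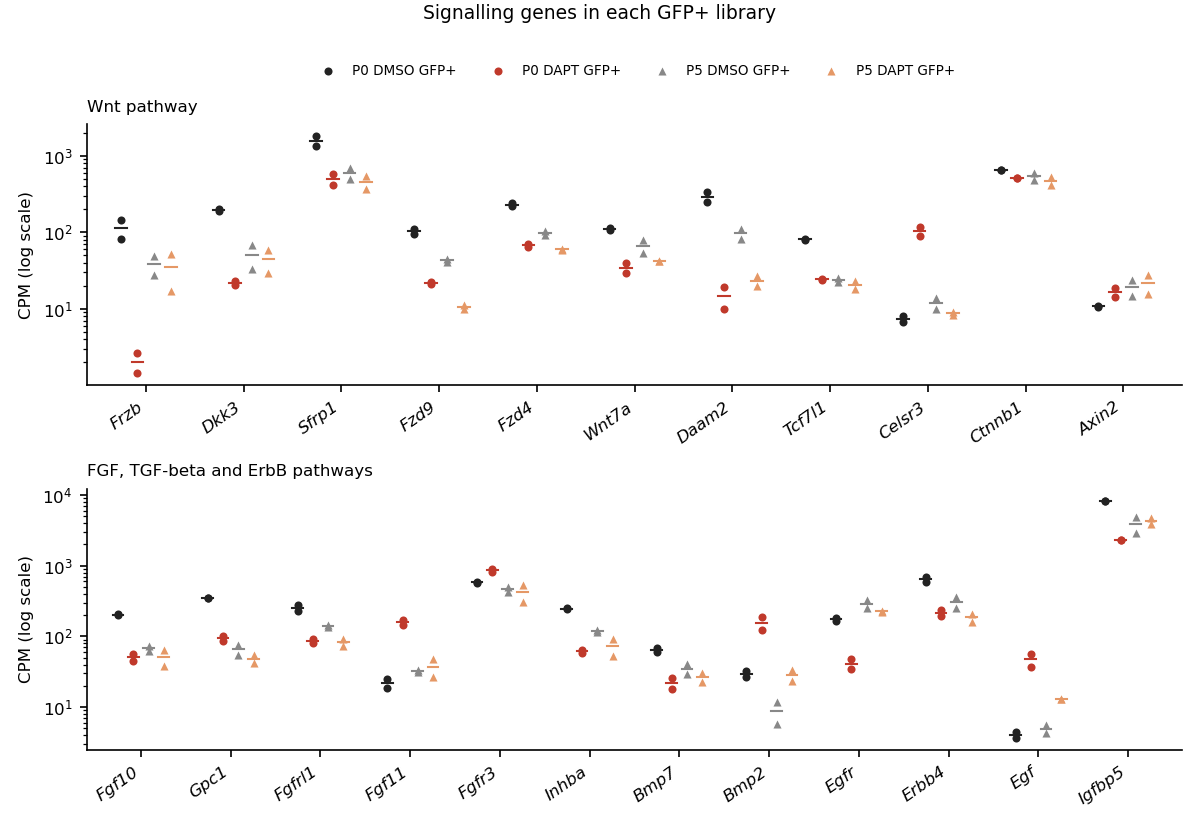
Level of Wnt genes (top) and of FGF, TGF-beta, ErbB and insulin-like growth factor genes (bottom) in each GFP+ library, in CPM on a log scale. Each point is 1 library and each short line the mean of the 2 libraries of a group. In P0 cells Celsr3, Fgf11, Bmp2 and Egf lie higher with DAPT while Ctnnb1, Axin2 and Fgfr3 were not called and the other genes shown lie lower.

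Fibroblast growth factors pattern the organ of Corti and set the pillar and Deiters' cell types. Of 43 genes of the pathway, 7 were called lower and 2 higher. Fgf10 (chromosome 13, 119458598 to 119580922), a ligand of the growing cochlear epithelium, went from 209 and 198.5 to 45.3 and 56.8 CPM (log2 fold change -2.03, SE 0.15, adjusted p = 2.3e-05), and Fgf3 from 29.8 and 15.9 to 2.67 and 4.45 CPM. Fgf11, an intracellular member of the family that is not secreted as a ligand, rose from 18.8 and 24.6 to 172 and 145 CPM (log2 fold change 2.83, SE 0.18). Fgf20, a ligand for early sensory progenitors, stayed near the floor at 2.14 to 5.31 CPM in all 4 libraries. Receptor partners fell: Gpc6 and Gpc1 are glypicans, heparan sulfate proteoglycans that present growth factors, and Fgfrl1 is a receptor without a kinase. Gpc6 went from 304 and 233 to 64.5 and 47.98 CPM, Gpc1 from 353 and 352 to 102 and 86.2 CPM, and Fgfrl1 from 281 and 226 to 80.8 and 91.2 CPM. The receptors with a kinase were not called. Fgfr3, a marker of pillar and Deiters' cells, was at 591 and 566 CPM with DMSO and 908.5 and 802 CPM with DAPT (log2 fold change 0.53, adjusted p = 0.0127), and Fgfr1 at 111.5 in both DMSO libraries and 243.5 and 195 CPM with DAPT (log2 fold change 0.94). Fgfr1 reached the fold limit only without DAPT replicate 2 (log2 fold change 1.12). Of 16 feedback and target genes, Flrt2 fell from 304 and 270 to 115 and 103 CPM, Flrt3 rose from 16.3 and 18.8 to 156 and 106 CPM, and Etv4, a transcription factor that responds to FGF, fell from 12.4 and 13.2 to 4.004 and 3.21 CPM, a call lost without DAPT replicate 2 (adjusted p = 0.0123). The P5 DMSO level lay nearer to P0 DMSO in 1 of the 7 lower and in both higher genes.

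The TGF-beta superfamily includes the bone morphogenetic proteins and activins. Of 18 genes listed as ligands, among them the protease gene Bmp1, 6 were called lower and 2 higher, whereas none of 14 receptors was called by edgeR, although 9 had an unadjusted p under 0.05 and DESeq2 called 1 higher and 1 lower. Inhba, the activin beta A subunit, fell from 249 and 241 to 63.8 and 58.5 CPM (log2 fold change -2.04, SE 0.13, adjusted p = 9.3e-06). Bmp7 fell from 69.5 and 60.6 to 17.8 and 26.2 CPM (-1.60, SE 0.21), and Bmp1, a protease that frees ligands and trims procollagen, from 71.8 and 74.4 to 29.4 and 24.2 CPM. Tgfb2 went from 1457 and 1262 to 523 and 729 CPM, with a log2 fold change of -0.90 without DAPT replicate 1. Gdf6 and Bmp3 were called from levels under 20 CPM and lost the call without DMSO replicate 2 (adjusted p = 0.0110 and 0.0217). Bmp2 (chromosome 2, 133377895 to 133388621) rose from 32.01 and 26.9 to 185 and 125 CPM (log2 fold change 2.36, SE 0.21, adjusted p = 5.5e-05), and Bmp4 from 2.33 and 2.34 to 11.8 and 9.98 CPM. The treated and control libraries did not overlap for any of these ligands, which their calls in these same libraries made likely. The receptor with the smallest p was Acvr1, at 27.6 and 27.4 against 49.4 and 45.7 CPM (log2 fold change 0.75, adjusted p = 0.0096). Downstream, Id3 and Id1, transcriptional targets of BMP signals, fell from 188 and 138 to 57.5 and 42.96 CPM and from 90.1 and 95.5 to 46.5 and 46.1 CPM. Id1 lay at the fold limit (log2 fold change -1.04) and missed it with a GC offset (-0.997) and without DMSO replicate 2 (-0.98). Among secreted regulators Fstl1 fell from 2301 and 1514 to 622 and 525 CPM. Fstl4 rose from 7.01 and 1.58 to 59.6 and 54.4 CPM and Smoc2 from 4.72 and 3.21 to 46.2 and 32.4 CPM. Over all TGF-beta lists the P5 DMSO level lay nearer to P0 DMSO in 1 of the 9 lower and 3 of the 4 higher genes.

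Receptors for epidermal growth factors fell and a ligand rose. The medium of both groups contained EGF and FGF2. Egfr went from 168 and 179 to 35.1 and 47.4 CPM (log2 fold change -2.11, SE 0.17, adjusted p = 3.5e-05), Erbb4 from 589 and 685 to 192 and 237 CPM (-1.60, SE 0.15) and Erbb2, their shared partner, from 32.4 and 29.6 to 12.1 and 13.2 CPM (-1.33, SE 0.20), the last with an adjusted p of 0.0130 without DAPT replicate 1. Egf rose 11.4-fold, from 4.396 and 3.67 to 56.97 and 37.4 CPM (log2 fold change 3.51, SE 0.26). In all, 4 of 18 ErbB genes fell (2 without DAPT replicate 1) and 2 rose; Ereg, with 72 against 1 count, and Lrig3 lost their calls without DMSO replicate 2 (adjusted p = 0.107) and DAPT replicate 1 (0.0460). At P5 Egfr was at 254 and 327 CPM with DMSO and at 230 and 220.5 CPM with DAPT. Its response at P5 minus that at P0 was 1.74 on the log2 scale (SE 0.25, interaction adjusted p = 0.0061). Age and the run of the P0 controls cannot be told apart in this difference. For the ErbB genes called, the P5 DMSO level lay nearer to P0 DMSO in 2 of the 4 lower and both higher genes. Of 15 insulin-like growth factor genes 3 fell, and the P5 DMSO level lay nearer to P0 DMSO in 1 of these. Igfbp5, a binding protein, went from 8250 and 8075 to 2282 and 2274 CPM (log2 fold change -1.88, SE 0.11, adjusted p = 4.8e-06), and Igfbp3 from 1926 and 1770 to 529 and 731 CPM. Irs1, an adaptor of the receptor, was called at a log2 fold change of -1.11 and lost the call with each of the 4 libraries left out in turn, with an adjusted p up to 0.0324. Of 12 hedgehog pathway genes 1 fell, Gas1, from 194 and 142 to 51.8 and 69.2 CPM.

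Guidance molecules changed in both directions, with 11 of 91 lower and 11 higher. Semaphorins, which steer growing axons, showed 4 calls each way among 31 genes with their receptors, with 2 lower without DMSO replicate 1. Sema5a fell from 144 and 127 to 13.6 and 12.2 CPM (log2 fold change -3.43, SE 0.16, adjusted p = 2.0e-06) and Sema3a, a repellent of cochlear nerve fibres, from 224 and 164 to 24.5 and 38.2 CPM (-2.67, SE 0.23). Sema3d and the receptor Nrp2 were called lower as well and lost the call without DAPT replicate 1 (adjusted p = 0.0118 and 0.0626). Sema5b rose from 41.2 and 13.4 to 298 and 276 CPM (3.35, SE 0.41), Sema3c from 5.63 and 5.6 to 74.1 and 45.2 CPM (3.37, SE 0.26), Sema7a from 3.02 and 1.32 to 22.7 and 17.3 CPM and Sema6b from 6.46 and 6.26 to 28.2 and 25.2 CPM. Of 20 Slit and netrin genes with their receptors, 4 rose and 1 fell. The Slit receptor Robo2 went from 22.99 and 26.01 to 184 and 149 CPM and the netrin receptor Unc5b from 170 and 122 to 808 and 670 CPM. Ntng2, a membrane-bound netrin, rose from 42.2 in both DMSO libraries to 102 and 87.1 CPM. Slit3 fell, and lost the call without DAPT replicate 1 (adjusted p = 0.0246). Among Eph receptors and ephrins, Efna5 rose from 19.6 and 19.7 to 129 and 106 CPM and Epha2 from 2.84 and 1.93 to 14.7 and 16.2 CPM, while Ephb2 fell from 45.1 and 44.3 to 13.2 and 16.3 CPM. The Slitrk family of surface proteins, which act on neurites and synapses, included Slitrk2, which fell from 62.9 and 65.2 to 2.19 and 1.71 CPM (-5.07, SE 0.22, adjusted p = 1.3e-06), and Slitrk6, a supporting cell gene needed for cochlear innervation, which fell from 1666 and 1634 to 697 and 703 CPM. Lrrtm1, a synaptic organiser, fell from 53.6 and 50.96 to 19.8 and 12.5 CPM. Bdnf, a survival factor for cochlear neurons, rose from 13.6 and 8.399 to 87.02 and 65.1 CPM (log2 fold change 2.75, SE 0.25), and Gfra1, a receptor for glial cell line-derived factors, from 34.2 and 34.3 to 87.99 and 74.97 CPM.

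A number of genes known from neurons rose. Hair cells share much of this machinery, including the splicing factor Srrm4 and the secretory apparatus. Of 76 genes for neuronal splicing, dense core granules, chromatin remodelling and polycomb, 14 were called higher and 1 lower, with a median of 0.23 (0.32 at 10 CPM or more). The P5 DMSO level lay nearer to P0 DMSO in all 14 higher genes, and 9 of the 14 kept the call with each library left out. Srrm4 (ENSMUSG00000063919, chromosome 5, 116889281 to 117041826), which promotes neuronal microexons and is needed in hair cells, rose 26.5-fold, from 16.7 and 8.65 to 358 and 335 CPM (log2 fold change 4.73, SE 0.28, adjusted p = 5.7e-06). A non-coding transcript annotated inside it, 2410137F16Rik, rose with it (log2 fold change 5.21), and without stated strand the reads of the pair cannot be told apart. Rest, a repressor of neuronal genes whose own splicing Srrm4 changes, was not called, at 126 and 127 CPM with DMSO and 65.7 and 79 CPM with DAPT (log2 fold change -0.84, adjusted p = 0.0033). Rbfox2, a splicing regulator, rose from 21.1 and 19.8 to 101 and 98.4 CPM (2.25, SE 0.15). Ptbp1, which represses neuronal exons and is low in neurons, rose too, from 356 and 307 to 1058 and 975 CPM (1.58, SE 0.13), and overlaps BC005764 in the annotation, which was also called higher. Ptbp2, its neuronal relative, was at 52.3 and 68.5 against 116 and 110 CPM (log2 fold change 0.87, adjusted p = 0.0049), under the fold limit. Elavl4 and Srrm3 were called higher from levels under 5 CPM and lost the call without DAPT replicate 2 (adjusted p = 0.0246 and 0.0184).

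Granule genes gave 5 higher (3 without DMSO replicate 2) and 1 lower call among 17. Scg3 and Chgb, proteins of dense core granules, rose from 8.84 and 2.24 to 44.2 and 40.5 CPM and from 4.17 and 1.32 to 16.1 and 23.2 CPM, and Chga from 2.66 and 0.458 to 19.8 and 13.7 CPM (DESeq2 adjusted p = 0.0118). The call of Pcsk1, a prohormone protease, was lost with each of the 4 libraries left out in turn (log2 fold change 1.83 without DMSO replicate 1). That of Cadps2, a factor for granule release, was lost in 3 of these fits (0.61 without DAPT replicate 2). Trh, a neuropeptide precursor, fell from 25.6 and 17.97 to 0.374 and 0 CPM. The median of the granule list was -0.14, and 1.035 over the 9 members at 10 CPM or more. Chromatin remodelling subunits that differ between progenitors and neurons held 3 higher calls among 18. Bcl11b, a transcription factor of outer hair cells and neurons that joins these complexes, rose from 2.56 and 1.63 to 42.8 and 57.1 CPM (4.53, SE 0.28, adjusted p = 7.9e-06). Bcl7a rose from 42.8 and 48.2 to 179 and 162 CPM, and Bcl11a from 44.5 and 55.5 to 115 and 104 CPM, with a log2 fold change of 0.98 without DMSO replicate 1. Eed, a polycomb subunit, rose from 26.8 and 20.5 to 62.1 and 56.04 CPM. The neuronal helix-loop-helix factors Nhlh1 and Neurod6 rose from 4.08 and 1.48 to 60.6 and 50.5 CPM and from 1.47 and 0.916 to 18.2 CPM in both DAPT libraries. Neurog2, the proneural factor, went the other way, with 58 counts in the DMSO pair and 0 in the DAPT pair, at least 17.7-fold lower, and lost the call with each library left out in turn, with an adjusted p up to 0.0804 without DMSO replicate 1. The neuronal markers Snap25 and Stmn2 rose from 8.79 and 5.14 to 65.2 and 71.7 CPM and from 1.33 and 2.39 to 13.8 and 12.5 CPM, and Nefm from 8.93 and 3.82 to 33.96 and 38.3 CPM. The summed level of 12 spiral ganglion neuron markers was 68.4 and 47.7 CPM with DMSO and 191 and 213 CPM with DAPT, and that of 30 hair cell markers 848 and 475 against 4512 and 4150 CPM; their part in the rise of the neuronal lists was not tested.

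**Figure D4:**
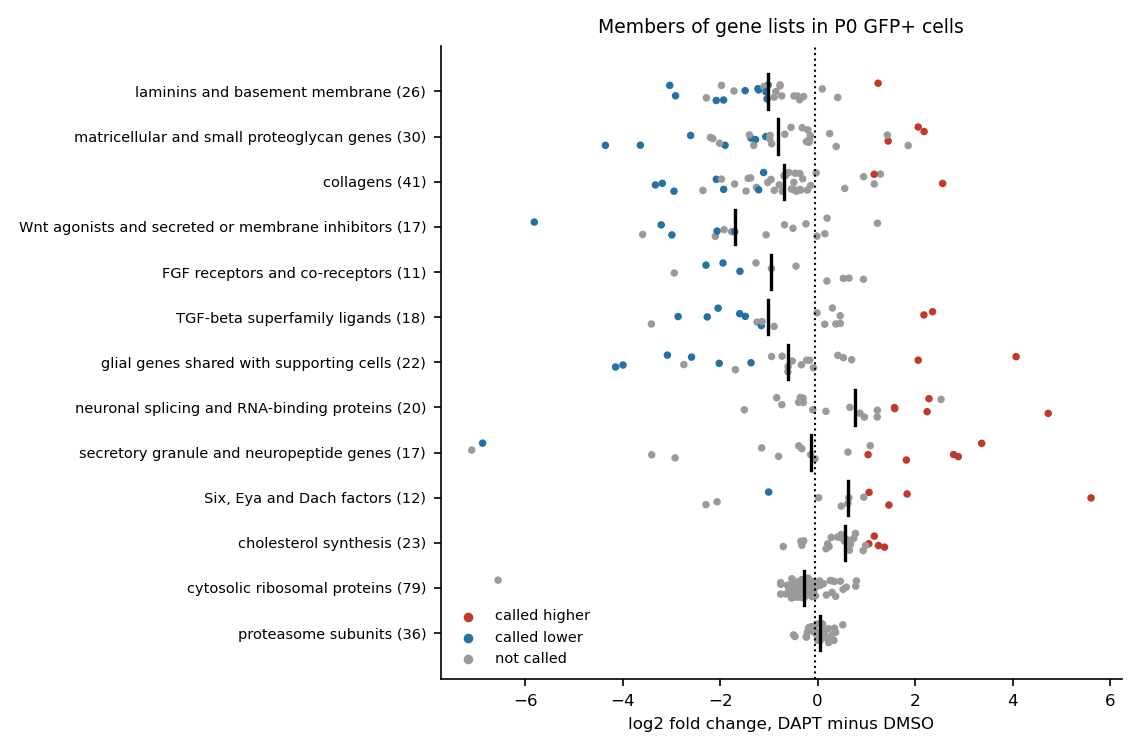
Log2 fold change (DAPT minus DMSO) of every tested member of 13 gene lists in P0 GFP+ cells, with the number of members in brackets. Red points were called higher, blue points lower and grey points not called. Black bars mark list medians and the dotted line the median of all genes tested, -0.045. The medians of laminins and basement membrane genes (-1.03) and of neuronal splicing genes (0.76) lie on opposite sides of it. The median of ribosomal proteins (-0.28) lies below it and that of proteasome subunits (0.05) slightly above it. At 10 CPM or more these 2 medians were -0.29 and 0.05, against 0.15 over all genes.

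Transcription factors of the otic sensory lineage also changed. Of 12 Eya, Dach and sine oculis homeobox genes, 4 rose and 1 fell (median 0.63, or 0.79 at 10 CPM or more). Eya2, a co-activator of sine oculis homeobox proteins, rose 48.8-fold, from 1.97 and 1.48 to 91.8 and 81.8 CPM (log2 fold change 5.61, SE 0.22, adjusted p = 9.1e-07). Eya4, a deafness gene, rose from 216 and 239 to 674 and 610 CPM, Dach1 from 25.2 and 21.9 to 87.8 and 84.5 CPM and Six4 from 107 and 94.8 to 214 and 216 CPM. Six4 lay at the limit (0.99 without DMSO replicate 2), as did Six2, which fell (-1.005 with all libraries, -0.82 without DAPT replicate 1). Lmo1, a LIM-only factor, rose from 2.24 and 0.916 to 17.9 and 20.8 CPM. Among 14 Sox factors 3 fell, and 5 without DAPT replicate 2. Sox9, a factor of the otic epithelium and supporting cells, went from 241 and 219 to 78.5 and 67.4 CPM (-1.69, SE 0.14, adjusted p = 4.3e-05), Sox6 from 199.7 and 209.5 to 96.4 and 92.3 CPM, and Sox8 from 8.56 and 8.76 to 1.55 and 2.74 CPM, the last with an adjusted p of 0.0298 without DAPT replicate 1. The response of Sox9 at P5 minus that at P0 was 1.33 on the log2 scale (SE 0.20, interaction adjusted p = 0.0073). Age and the run of the P0 controls cannot be told apart in this difference. At P5 Sox9 was at 156.5 and 180.5 CPM with DMSO and 133 and 130 CPM with DAPT. Of 39 nuclear receptors 3 fell and 2 rose, among them Esrrg, from 9.02 and 4.58 to 23.4 and 29.3 CPM, and Rora, from 492 and 617 to 241 and 273 CPM, with -0.96 without DMSO replicate 2.

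Of the genes that supporting cells share with glia, some fell and a few rose. Deiters' and phalangeal cells resemble glia in their gap junctions, potassium uptake and support of nerve endings. Of 22 such genes, 6 fell and 2 rose (median -0.61, or -0.565 at 10 CPM or more). Fabp7, a brain fatty acid carrier of radial glia, fell from 190 and 84.8 to 4.91 and 11.01 CPM (log2 fold change -4.14, SE 0.44, adjusted p = 2.0e-04). Aqp4, a glial water channel, went from 19.5 and 26.5 to 2.08 and 0.879 CPM. Ednrb, the endothelin B receptor, went from 152 and 99.5 to 14.9 and 28.1 CPM, and Ptprz1, a receptor phosphatase, from 684 and 671 to 136 and 207 CPM. All of these lay lower in both treated libraries, which their calls in these libraries made likely. Slc6a11, a glial transporter of GABA, rose from 6.73 and 2.596 to 59.9 and 102 CPM (4.07, SE 0.41). For potassium buffering, Kcnj10 fell from 157 and 152 to 74.4 and 77.2 CPM and lay at the fold limit without DAPT replicate 1 (log2 fold change -0.9975), and the connexin Gja1 was called at a low level and lost the call without DMSO replicate 2 (adjusted p = 0.0391). The 10 Schwann cell markers summed to 352 and 223 CPM with DMSO and to 111 and 208 CPM with DAPT, and none of the 8 tested was called by edgeR or DESeq2 (2 at an unadjusted p under 0.05).

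Few proliferation genes were called. Of 40 genes of S phase and mitosis, 1 was called, and their median was -0.34 (-0.05 over the 9 members at 10 CPM or more). Mki67, a marker of dividing cells, overlapped between the groups at 10.1 and 9.67 against 4.27 and 9.88 CPM. The gene called was Pole, the catalytic subunit of a DNA polymerase, which rose from 106.5 and 91.9 to 903 and 973 CPM (log2 fold change 3.21, SE 0.14, adjusted p = 1.3e-06). The pseudogene Gm15791, the transcript Gm15792 and a small nucleolar RNA gene annotated within Pole rose with it (log2 fold changes 5.80, 3.56 and 5.02). Among 23 cyclins and cell cycle inhibitors 3 rose, all of them growth-restraining genes. Gadd45g, a stress and differentiation gene, rose from 1.51 and 1.73 to 70.7 and 76.8 CPM (5.47, SE 0.21, adjusted p = 8.4e-07). Cdkn1a rose from 111 and 73.1 to 287 and 352 CPM and Cdkn1c from 50.5 and 56.7 to 114 and 118 CPM. Cdkn1b, the inhibitor that keeps supporting cells out of the cycle, was not called, at 373 and 414 against 186 and 219 CPM (log2 fold change -0.99, adjusted p = 0.00081), and passed the fold limit without DMSO replicate 1 (-1.03), without DAPT replicate 2 (-1.09) and with libraries thinned to equal depth (-1.002).

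Regulators of cell death rose and fell. Of 18 p53 targets and apoptosis genes, 4 were called higher and 2 lower. Pmaip1, which encodes the death-promoting Noxa, rose from 0.962 and 0.764 to 16.4 and 12.9 CPM (log2 fold change 4.04, SE 0.37, adjusted p = 8.0e-05), and Bcl2l11, which encodes Bim, from 38.3 and 33.1 to 129 and 99.4 CPM. Bcl2l1, which encodes the survival protein Bcl-xL, rose from 20.1 and 18.2 to 66.6 and 62.1 CPM, whereas the survival gene Bcl2 fell from 173 and 232 to 38.2 and 31.02 CPM (-2.58, SE 0.18, adjusted p = 1.6e-05). Trp53inp1, a p53 target, rose from 77.3 and 81.3 to 179 and 160 CPM. Eda2r was the other gene called lower, from under 4 CPM, and lost the call without DMSO replicate 2 (adjusted p = 0.0474). Immediate early genes had 3 lower calls among 27 and a median of -0.92 (-1.06 at 10 CPM or more), and the lower count was 13 without DAPT replicate 2 and 1 without DMSO replicate 1 or DAPT replicate 1. Nr4a3 fell from 205 and 266 to 24.03 and 60.5 CPM, and Jun and Dusp1 lost their calls without DMSO replicate 1 (adjusted p = 0.0241) and DAPT replicate 1 (0.0436). Fos was at 409 and 301 against 49.3 and 196 CPM (log2 fold change -1.57, adjusted p = 0.0376), passed the limits with the replicate block (log2 fold change -1.86, adjusted p = 0.0058) and, without DAPT replicate 2, reached a log2 fold change of -2.86 (adjusted p = 4.4e-06). None of 19 interferon response genes was called by edgeR, with 8 at an unadjusted p under 0.05. Ifit2 had the smallest p among them, at 5.08 and 5.65 against 1.44 and 1.19 CPM, and was called by DESeq2 (adjusted p = 0.0027). Among 13 hypoxia genes 7 had an unadjusted p under 0.05 and neither edgeR nor DESeq2 called one, with Kdm3a at 136 and 114 against 224 and 244.5 CPM (log2 fold change 0.87, adjusted p = 0.0024), which passed the fold limit with a GC offset (1.03) and without DMSO replicate 1 (1.035). Cryab, a small heat shock protein, rose from 323 and 237 to 690 and 569 CPM, with 0.94 (log2) without DMSO replicate 2. Pdia4, a chaperone of the endoplasmic reticulum, fell at the fold limit (log2 fold change -1.01, or -0.95 without DAPT replicate 2).

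Several genes for the synthesis of sterols and unsaturated fatty acids rose. Of 23 cholesterol synthesis genes 4 rose (2 without DAPT replicate 1), with a median of 0.55 (0.63 over the 20 members at 10 CPM or more). Hsd17b7 rose from 36.5 and 30.9 to 87.2 and 91.9 CPM (log2 fold change 1.37, SE 0.16), Lss, lanosterol synthase, from 17.5 and 26.98 to 61.7 and 46.4 CPM, Fdft1, squalene synthase, from 54.95 and 45.2 to 128 and 102 CPM, and Idi1 from 22.02 and 18.2 to 48.9 and 36.5 CPM. The calls of Lss and Idi1 were lost without DAPT replicate 1 (adjusted p = 0.0236 and 0.0501). The P5 DMSO level lay nearer to P0 DMSO in 1 of the 4. Of 30 fatty acid and triglyceride genes 4 rose and 3 fell, with a median of -0.21 (-0.23 over the 23 members at 10 CPM or more). For these the P5 DMSO level lay nearer to P0 DMSO in 1 of the 4 higher and all 3 lower genes. Scd1, the desaturase of stearate, rose from 60.4 and 47.3 to 397 and 336 CPM. Elovl2, which lengthens polyunsaturated fatty acids, rose from 7.097 and 3.16 to 69.7 and 47.8 CPM. Scd1 was at 1032 and 1274 CPM in P5 DMSO cells, above all P0 libraries. Dgat2, an enzyme of triglyceride synthesis, fell 50.1-fold, from 50.05 and 58.4 to 1.12 and 1.09 CPM (log2 fold change -5.65, SE 0.24, adjusted p = 1.3e-06), whereas Dgat1, which carries out the same step, was called higher at 19.9 and 14.1 against 40.1 and 34.3 CPM, a call lost without DAPT replicate 1 (adjusted p = 0.0372). Acsl1, an acyl-CoA synthetase, fell, with an adjusted p of 0.0128 without DAPT replicate 1.

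In energy metabolism a few single genes were called. Of 22 glycolysis and lactate genes, 2 rose and 2 fell (median -0.20, or -0.24 at 10 CPM or more). Pfkp, the platelet form of phosphofructokinase, rose 17.4-fold, from 8.47 and 14.4 to 219 and 187 CPM (log2 fold change 4.12, SE 0.24, adjusted p = 5.6e-06). The aldolases parted: Aldoc, the brain form, fell from 190 and 175 to 35.5 and 37.8 CPM, and Aldoa, the muscle form, rose from 71.4 and 53.5 to 150 and 142 CPM. Eno1 was called lower, from 179 and 164 to 17.6 and 21.4 CPM, but enolase shares reads with near-identical copies in the mouse genome and its value is uncertain. Among 84 nuclear genes of oxidative phosphorylation 1 was called, Cox4i2, an alternative subunit of cytochrome oxidase, which fell from 22.8 and 36.4 to 5.39 and 8.01 CPM. The list median was -0.125, and -0.131 at 10 CPM or more. Of 50 glutathione and antioxidant genes, 6 fell and 1 rose. Gstm1 fell from 221 and 246 to 13.3 and 20.5 CPM (-3.82, SE 0.21, adjusted p = 3.7e-06), Gsta4 from 169 and 129 to 34.5 and 34.95 CPM, Gstm7 from 42.1 and 48.05 to 14.3 and 11.1 CPM, Mgst1 from 104 and 94.1 to 39.2 and 36.1 CPM and Sod1 from 512 and 414 to 189 and 217 CPM. Gstm genes are close copies of each other, so reads may be split among them, and Gstm3, called from under 3 CPM, lost the call without DMSO replicate 2 (adjusted p = 0.0373). Gpx2, a glutathione peroxidase of epithelia, rose from 0.916 and 0.56 to 9.503 and 29.99 CPM (4.68, SE 0.59). A further 4 lists held no call by edgeR: 79 cytosolic ribosomal protein genes (median -0.28, smallest p for Rps4x with a log2 fold change of -0.65 and an adjusted p of 0.0063), 36 proteasome genes (median 0.05, smallest p for Psmb4, adjusted p = 0.0728), 34 histone genes (median -0.13, smallest p for H2afy, log2 fold change 0.70, adjusted p = 0.0049) and 22 Kruppel-like factors (median -0.035, smallest p for Klf12, log2 fold change 0.70, adjusted p = 0.0054). At 10 CPM or more their medians were -0.29, 0.05, -0.14 and 0.13 in this order. In edgeR's test 31, 2, 6 and 10 genes had an unadjusted p under 0.05, and 17, 0, 1 and 5 an adjusted p under 0.05. DESeq2 called 1 gene, a Kruppel-like factor.

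In the cytoskeleton 9 of 121 genes rose and 9 fell. Keratins of simple epithelia went down, Krt18 from 92.2 and 74.5 to 17.5 and 25.6 CPM (log2 fold change -1.99, SE 0.21, adjusted p = 2.0e-04) and Krt8, its partner, from 98.2 and 64.7 to 20.8 and 27.8 CPM. Krt80 rose from 2.24 and 1.17 to 27.6 and 27.3 CPM, and Krt77 was called lower from under 4 CPM and lost the call without DMSO replicate 1 (adjusted p = 0.0479). Among microtubule genes Tuba4a rose from 11.7 and 9.27 to 63.2 and 51.3 CPM and Stmn1, which destabilises microtubules, from 21.7 and 17.1 to 68.3 and 56.6 CPM, while Dclk1 fell at the fold limit (log2 fold change -1.06, or -0.95 without DAPT replicate 2). Tubb2c was called higher (1.04, or 0.90 without DMSO replicate 2), and tubulin genes resemble each other enough to share reads. Among actin regulators Evl rose from 50.3 and 33.1 to 205 and 206 CPM and Tpm1 from 95.9 and 64.3 to 314 and 342 CPM, whereas Vill, related to villin, fell from 34.3 and 54.5 to 3.52 and 8.89 CPM and Tmod2, which caps actin filaments, from 268 and 302 to 68.9 and 85.8 CPM. Both treated libraries lay outside the control range for each of these 4 actin genes, which their calls in these libraries made likely.

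Large families were also counted. Of 332 solute carriers tested, 20 were called higher (6.02%) and 16 lower (4.82%), the lower count being 6 without DMSO replicate 1. Slc8a1, a sodium-calcium exchanger, rose from 31.9 and 17.8 to 634 and 477 CPM (log2 fold change 4.45, SE 0.28, adjusted p = 7.7e-06), Slc16a5, a monocarboxylate transporter, from 4.53 and 1.37 to 76.4 and 79.9 CPM and Slc43a1, an amino acid transporter, from 7.601 and 8.55 to 111 and 104 CPM. Slc2a9, a urate transporter, fell from 12.1 and 17.5 to 1.39 and 0.982 CPM and Slc6a14, an amino acid transporter, from 83.3 and 80.9 to 7.58 and 10.1 CPM. Of the lower carriers 9 did not reach 10 CPM, and 5 of 16 lower and 15 of 20 higher carriers kept the call with each library left out. Of 56 Rab GTPases, which direct vesicles, Rab3b fell from 275 and 282 to 27.4 and 33.9 CPM (-3.22, SE 0.15), and Rab15 and Rab36 rose from 35.5 and 12.6 to 221 and 374 CPM and from 26.3 and 35.4 to 71.1 and 76.2 CPM. Among 346 zinc finger genes named Zfp, 8 rose (2.31%) and 1 fell (0.289%), both shares under those over all genes. Zfp503, a corepressor, rose from 3.98 and 2.14 to 75.5 and 68.97 CPM, Zfp667 from 37.9 and 42.7 to 301 and 269 CPM and Zfp276 from 18.4 and 21.4 to 85 and 71.1 CPM. The gene that fell was Zfp459, with an adjusted p of 0.0126 without DAPT replicate 1.

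DAPT inhibits the cleavage of many membrane proteins besides Notch, and their transcripts were also counted. Of 34 genes for other gamma-secretase substrates, 5 rose and 5 fell, and all 10 kept the call with each library left out. Nrxn3, a neurexin of synapses, rose from 45.4 and 38.7 to 469 and 398 CPM (log2 fold change 3.33, SE 0.15, adjusted p = 1.9e-06), Pvrl1, a nectin that joins hair cells to supporting cells, from 12.3 and 7.43 to 70.2 and 63.1 CPM, and Cdh2, N-cadherin, from 125 and 69.1 to 352 and 316 CPM. Sdc1, a syndecan, fell from 24.7 and 22.96 to 3.84 and 5.48 CPM and Sorl1, a sorting receptor, from 58.01 and 52.3 to 16.2 and 14.2 CPM. The Notch receptors and ligands changed as well. Notch1 fell from 501 and 434 to 202 and 157 CPM and Notch3 from 105 and 107 to 25.9 and 22.96 CPM. The ligand Jag1, which supporting cells carry, fell from 1212 and 1101 to 307 and 396 CPM, and the hair cell ligands Jag2 and Dll1 rose from 7.28 and 2.75 to 179 and 155 CPM and from 2.61 and 2.04 to 43.2 and 37.7 CPM.

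The sort was checked against lists of markers for each cell type. In the P0 GFP+ libraries 50.05 to 62.02% of reads lay outside genes, against 11.96 to 13.59% in the P0 GFP- libraries. Mitochondrial genes held 23.03 to 32.22% of the counts in genes, against 3.01 to 5.37%. The part of these differences in the summed levels was not tested. The 20 supporting cell markers summed to 7980 and 6948 CPM with DMSO and to 5363 and 5540 CPM with DAPT, against 1711 to 2519 CPM in the P0 GFP- libraries, and all of them were detected in the GFP+ libraries. Of these markers 4 fell (Sox9, Ednrb, Fabp7 and Slitrk6) and 1 rose (Lgr5). The 14 fibroblast and mesenchyme markers summed to between 203 and 368 CPM in P0 GFP+ cells and to between 10270 and 14790 CPM in GFP- cells. In single genes of other cell types, Pdgfrb, a pericyte receptor, fell from 99.96 and 118 to 6.03 and 6.101 CPM, and Rgs5 and Abcc9 were called lower from under 10 CPM and lost the call without DMSO replicate 1 (adjusted p = 0.0721 and 0.0334). Pdgfra, a receptor of mesenchymal cells, rose from 30.2 and 23.4 to 71.3 and 104 CPM, and Laptm5, a gene of blood cells, from 6.55 and 7.33 to 36.6 and 53.05 CPM, while Ptprc, the common leukocyte antigen, was called lower from under 6 CPM and lost the call without DMSO replicate 1 (adjusted p = 0.0148). No marker of endothelium, erythroid cells, Schwann cells or stria was called by edgeR, with 5 of 10, 2 of 5, 2 of 8 and 2 of 7 at an unadjusted p under 0.05, and DESeq2 called 2 endothelial markers lower.

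**Figure D5:**
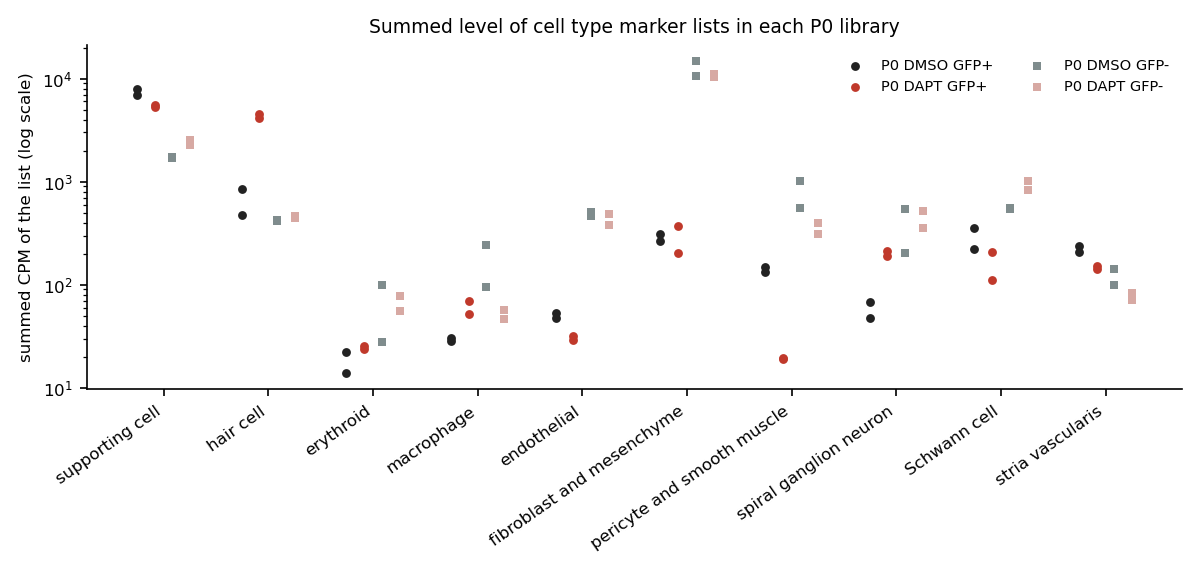
Summed level of 10 lists of cell type markers in each P0 library, in CPM on a log scale. Circles are GFP+ and squares GFP- libraries, 2 for each group. Hair cell markers lie higher and pericyte and smooth muscle markers lower in both DAPT GFP+ libraries than in both DMSO GFP+ libraries, and mesenchyme markers lie far below the GFP- libraries in all 4.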

How the data were processed

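Poly(A) RNA of sorted cells was amplified and sequenced as read pairs by the authors. Per the labels and the study's methods, reads were aligned to the mouse genome (mm9, NCBIM37) with TopHat, and the submitters' processing notes also name HTSeq and DESeq 1.9.2. The strand and counting settings are not given in the sources used here, so overlapping and antisense genes cannot be separated. The deposited values are whole counts of reads per Ensembl gene and were used without change, apart from the closing lines that name no gene.

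Counts of the 4 P0 GFP+ libraries were filtered with filterByExpr (minimum count 10, minimum total 15), scaled by TMM and tested with edgeR 4.0.16 (glmQLFit and glmQLFTest, R 4.3.3), with Benjamini-Hochberg adjustment over all genes tested, an adjusted p limit of 0.01 and a fold limit of 2. A standard error is the log2 fold change divided by the square root of F. CPM were computed after TMM over all 16 libraries. Responses at P5 and P0 were compared by an interaction term over the 4 GFP+ groups. The procedure was tested on simulated data. Alternatives were DESeq2 1.42.0 with its size factors and Wald test, no filter, a replicate block, all GFP+ groups in the fit, each library left out, mitochondrial genes left out, a GC offset, equal depth, a relaxed limit and a minimum level. Deviations of samples with the same replicate number correlated at r = -0.00959, which cannot settle pairing with 2 libraries in each group. The labels do not say whether the numbers pair the samples, and the main test used no replicate block.

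The called members of each gene list with the largest changes were named first, up to 6 each way, with reference members that were not called. Members and lists were chosen with earlier results of these data known. Authors' fold changes were not used.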

Additional observations from a re-analysis of the deposited data

Results flagged for a closer look

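For a number of genes named in the report the response to DAPT at P5 differed from that at P0, by the interaction term in edgeR's quasi-likelihood test over the 4 GFP+ groups, in which 245 of 22199 genes (1.1%) passed the limits. Values are the log2 response at P5 minus that at P0. Of the 1733 genes called at P0, 239 passed these limits. The genes below were named for their response at P0, which the difference subtracts. Its sign is therefore largely set by that choice. The P0 groups lie in different runs of library numbers and the P5 groups in 1 run, so that age and the run of the P0 controls cannot be told apart in this difference.

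Genes that fell at P0 had a positive difference: Frzb (5.65), Slitrk2 (4.34), Dgat2 (4.27), Egfl6 (3.48), Ccdc80 (3.26), Rab3b (3.10), Col22a1 (2.89), Prss23 (2.66), Sema3a (2.47), Adamts2 (2.14), Serpine2 (2.10), Bcl2 (2.03), Igfbp5 (2.01), Eno1 (1.93), Vangl1 (1.86), Mgst1 (1.81), Slc6a14 (1.80), Egfr (1.74), Tmod2 (1.72), Gsta4 (1.66), Col4a5 (1.61), Tcf7l1 (1.57), Aldoc (1.56), Sox9 (1.33) and Pdia4 (1.28). Adjusted p for these lay between 0.0006 and 0.0094.

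Genes that rose at P0 had a negative difference: Bcl11b (-4.26), Celsr3 (-4.21), Eya2 (-4.16), Lmo1 (-3.92), Pfkp (-3.87), Slc8a1 (-3.82), Srrm4 (-3.81), Nrxn3 (-3.44), Snap25 (-2.94), Tuba4a (-2.64), Fgf11 (-2.64), Pole (-2.63), Scd1 (-2.59), Bdnf (-2.50), Stmn1 (-2.43), Zfp667 (-2.30), Sema6b (-2.18), Evl (-2.18), Tubb2c (-2.05), Zfp276 (-2.01), Bcl7a (-1.71), Tpm1 (-1.66), Ntng2 (-1.59) and Ptbp1 (-1.51). Adjusted p for these lay between 0.0006 and 0.0098.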

How the results depend on the processing

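The total of 1733 called genes became 3761 at an adjusted p limit of 0.05, of which 1337 were higher and 2424 lower. The lower count was 1348 without the filter on low counts, 1315 with DESeq2's Wald test, 511 with all 4 GFP+ groups in the fit, 546 at 10 CPM or more in the higher group, and 496 to 877 with 1 library left out. The lowest count came without DMSO replicate 1, where 851 genes were higher. The higher count was 1313 with the replicate block and GC offset together. With a replicate block alone 1784 genes were called (932 higher, 852 lower), but the labels do not say whether the numbers pair the samples. The share of calls that were higher was 50.2%, and 63.18% without DMSO replicate 1, 60.94% without DMSO replicate 2, 59.04% at 10 CPM or more and 35.55% at the relaxed limit. The GC offset moved the median of all genes from -0.045 to 0.069. The interaction count of 245 became 906 without the filter and 59 to 268 with 1 library left out. Of 241 named genes, 190 kept their side of the limits with all GFP+ groups in the fit and 204 to 217 with 1 P0 library left out. Lef1, not called, ranged from -0.31 (without DAPT replicate 2) to 0.83 with 1 library left out, and Fgf20 from -0.46 (without DMSO replicate 2; -0.011 without DAPT replicate 2) to 0.87. The cause of these changes was not tested.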
